A study of Homo sapiens with 18 samples.

Results

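CNNM4 and 8 other genes of cellular magnesium handling (CNNM2, CNNM3, TRPM7, MAGT1, SLC41A1, SLC41A3, PTP4A1 and PTP4A2) were followed across 18 arrays of ECV304 cells. Each gene was taken from the transcript cluster, the probe group that the array reports as 1 value, whose annotation gives that symbol alone. Where a gene had several such clusters, the one with the highest mean log2 signal over the 18 arrays was used, so the cluster of each gene was chosen by that mean, which is given only as a description. The 9 genes are 9 of 18377 genes with a single-symbol transcript cluster. All 9 passed the filter on low signal (mean log2 above 6.19), which 13805 single-symbol genes passed.

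The cells had been starved of serum (1% FBS for 24 h), and every array comes from cells given interleukin-1β at 100 IU/ml. The control groups received medium alone beside the cytokine for 1, 3 or 6 h, and the treated groups received aminaphtone at 6 µg/ml beside it for the same times, with 3 arrays in each of the 6 groups. Aminaphtone is a naphthoquinone derivative used as a capillary-protecting drug. No group without interleukin-1β was part of the comparison, so the effect of the cytokine itself has no value here, and all time differences below start at 1 h of cytokine. The labels do not say whether the 3 arrays of a group came from separate cultures, so p-values measure the spread between these arrays, which may be technical.

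ECV304 is 1 established cell line that the labels describe as having both endothelial and epithelial features. Of 10 endothelial markers, 5 lay above the signal filter, among them ESAM (8.82) and CLDN5 (7.73), while PECAM1 (5.30), VWF (6.03), KDR (5.45), TEK (5.30) and EMCN (4.57), on the log2 scale, lay under it. All 7 epithelial markers measured lay above it, with KRT8 at 12.4, KRT18 at 11.7 and KRT7 at 11.4, as did 6 of 7 urothelial markers. KRT5 (7.48), EPCAM (7.46), KRT19 (6.70) and CDH1 (6.53) were dimmer. Above the median of annotated clusters (7.53) lay 2 of the 10 endothelial, 3 of the 7 epithelial and 1 of the 7 urothelial markers. Of 4 leukocyte markers measured 2 lay above the signal filter, CD14 (6.90) and ITGAM (6.39), and 0 above that median, with PTPRC at 3.63. Of 5 fibroblast markers 4 lay above the filter, from PDGFRB (6.68) to COL1A1 (7.80), and 1 above the median, with LUM at 3.14. The mean log2 signal of the endothelial list ran from 6.21 to 6.48 over the 6 groups and that of the epithelial list from 8.83 to 9.32. Arrays within a group correlated at 0.970 or more in 5 groups, and at 0.889 to 0.963 in the control group at 1 h. That group stands apart and also had the widest spread of the 6 groups in 8 of the 9 genes, so calls of the 9 genes that changed when 1 of its arrays was left out are given beside the results.

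Magnesium enters cells through channels such as TRPM7, an ion channel fused to a kinase, and sodium-dependent export has been described for CNNM and SLC41 proteins. The CNNM proteins (cyclin M family) sit in the plasma membrane and carry cytoplasmic CBS domains that bind magnesium and nucleotide. CNNM4 lies at the basolateral side of epithelia and is the gene mutated in Jalili syndrome, whereas CNNM2 is linked to inherited loss of magnesium through the kidney. The small phosphatases PTP4A1 and PTP4A2, also called PRL-1 and PRL-2, bind the CNNM CBS domains and hold back magnesium export. MAGT1 was described as a magnesium transporter and is also a subunit of the oligosaccharyltransferase, the enzyme that adds N-glycans to proteins.

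The sequence before the start of CNNM4 is shown with those of SLC41A1 and CNNM2, because these were the 3 of the 9 genes whose treated and control arrays did not overlap at 3 h and again at 6 h. Each run holds the 250 bases before the gene's start in RefSeq (GRCh38.p14), written 5′ to 3′ on the gene's own strand. Capitals mark matches, on either strand, to any of 6 motifs that were searched: the core of the aryl hydrocarbon receptor element (GCGTG), the antioxidant response core (TGACNNNGC), the AP-1 site (TGANTCA), the E-box (CACGTG), the cyclic AMP response element (TGACGTCA) and the NF-κB consensus. The cyclic AMP element was added after the CNNM4 sequence had been read.
CNNM4: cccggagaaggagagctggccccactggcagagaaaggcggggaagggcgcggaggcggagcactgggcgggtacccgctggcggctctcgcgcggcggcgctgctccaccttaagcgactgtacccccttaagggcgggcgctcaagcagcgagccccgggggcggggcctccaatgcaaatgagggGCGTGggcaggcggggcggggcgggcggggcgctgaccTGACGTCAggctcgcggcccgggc
SLC41A1: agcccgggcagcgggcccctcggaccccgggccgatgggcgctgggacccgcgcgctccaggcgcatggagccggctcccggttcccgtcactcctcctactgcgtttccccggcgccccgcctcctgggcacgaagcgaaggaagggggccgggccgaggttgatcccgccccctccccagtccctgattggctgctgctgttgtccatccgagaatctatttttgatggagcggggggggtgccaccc
CNNM2: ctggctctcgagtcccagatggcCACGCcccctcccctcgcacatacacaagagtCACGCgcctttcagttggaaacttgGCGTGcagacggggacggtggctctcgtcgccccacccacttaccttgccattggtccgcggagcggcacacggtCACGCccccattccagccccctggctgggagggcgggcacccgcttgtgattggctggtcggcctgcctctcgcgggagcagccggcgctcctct

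The CNNM4 window (chr2:96760652-96760901, plus strand) held 1 GCGTG that starts at -62 from the gene's start and 1 TGACGTCA that starts at -24. Over all 35116 RefSeq windows of this length, GCGTG was present in 32.2% and TGACGTCA in 1.65%. The CNNM2 window (chr10:102918044-102918293, plus strand) held 4 matches to GCGTG and none of the other motifs. The window of TRPM7, which passed in no comparison with all arrays, also held 4 GCGTG matches. CNNM3, MAGT1, SLC41A3, PTP4A1 and PTP4A2 each had at least 1 window with GCGTG. The 32.2% counts windows with at least 1 match. The SLC41A1 window (chr1:205813199-205813448, minus strand) held none of the 6. The remaining motifs were in 10.9% (TGACNNNGC), 6.57% (TGANTCA), 6.34% (CACGTG) and 9.96% (NF-κB consensus) of all windows. A match is a run of letters, and no binding was measured in these samples.

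Across the 18 arrays the mean log2 signals of the 9 genes ran from 7.95 for CNNM3 to 11.96 for PTP4A2, which lay at the 57.9 and 98.2 percentiles of annotated transcript clusters. Between them were CNNM2 at 8.26, TRPM7 at 8.35, SLC41A3 at 8.43, CNNM4 at 8.80, MAGT1 at 9.51, PTP4A1 at 9.78 and SLC41A1 at 9.85. Signals of different probe groups are not on a common scale of abundance, so these positions describe brightness on the array and not transcript number. All 9 symbols matched a RefSeq gene. MAGT1 alone had a further single-symbol cluster, at a mean log2 signal of 3.49, which lay under the filter and was not tested.

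CNNM4 had its highest signal in cells given aminaphtone for 3 h, where its 3 arrays read 9.73, 9.60 and 9.37 on the log2 scale against 8.29, 8.76 and 8.67 in the control cells. All 3 treated arrays lay above all 3 control arrays. The mean difference was 1.00 log2 units, a 1.997-fold higher signal (SE 0.149, n = 3 per group, 95% interval 0.68 to 1.31), with an adjusted p of 0.0359 in the limma fit over 15796 transcript clusters. By p-value CNNM4 stood at rank 1 of all clusters tested in that comparison, in which 6 clusters (0.038%) passed and 0.019% passed as higher. The gene heads this set with that result known, so its p-value describes the whole-table fit and is not separate evidence. In bulk RNA, more cells with the transcript and more transcript per cell cannot be told apart.

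At 1 h the control arrays read 8.45, 9.03 and 8.77 and the treated arrays 8.52, 8.56 and 8.71, and the groups overlapped. The difference was -0.15 (SE 0.149, 95% interval -0.47 to 0.16, limma adjusted p = 0.418). At 6 h the control arrays read 8.41, 8.27 and 8.34 and the treated arrays 9.06, 9.01 and 8.89, again with every treated array above every control array. The 6 h difference of 0.65 (1.57-fold, SE 0.149, 95% interval 0.33 to 0.96) did not pass over the whole table (limma adjusted p = 0.203). Averaged over the 3 times, the signal was 0.50 log2 units higher with aminaphtone (1.41-fold, SE 0.0859, limma adjusted p = 0.0118), where 0.829% of all clusters passed and 0.424% as higher. The limma interaction test found no change of the treatment difference across the 3 times past the threshold (adjusted p = 0.179). CNNM4 nevertheless had rank 12 by p in that test, in which 0.038% of clusters passed.

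Ordered by group mean, CNNM4 ran from control at 6 h (8.34), control at 3 h (8.57), aminaphtone at 1 h (8.60) and control at 1 h (8.75) to aminaphtone at 6 h (8.99) and aminaphtone at 3 h (9.57). Only the last pair of neighbours in that order had arrays that did not overlap. Within the aminaphtone series the signal rose by 0.97 from 1 h to 3 h (limma adjusted p = 0.000394), a comparison in which 10.5% of clusters passed. Its later values were 0.39 above 1 h at 6 h (adjusted p = 0.0842) and -0.58 from 3 h to 6 h (adjusted p = 0.125), neither past the limma threshold. Within the control series the differences were -0.18 from 1 h to 3 h (adjusted p = 0.492), -0.41 from 1 h to 6 h (adjusted p = 0.0510) and -0.23 from 3 h to 6 h (adjusted p = 0.715, all by limma). The lower control signal at 6 h lay just outside the threshold, and it passed with any 1 of 4 arrays left out: control at 1 h replicate 1 (0.00459), control at 3 h replicate 1 (0.0336) or 2 (0.0473), or aminaphtone at 3 h replicate 3 (0.0465).

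The 3 h call depended on single arrays, whereas the averaged call did not. With 1 array left out at a time, the 3 h difference stayed between 0.86 and 1.10 and kept its limma call in 5 of 18 fits. It was lost without any 1 of the treated arrays at 3 h (adjusted p 0.0678 to 0.262), any 1 of the control arrays at 3 h (0.0834 to 0.196) or any 1 of the treated arrays at 6 h (0.0562 to 0.0692). It was also lost without control at 6 h replicate 1 (0.0642) or 2 (0.0529) and without aminaphtone at 1 h replicate 1 (0.0721) or 2 (0.0695). In a fit of only the 6 arrays at 3 h it was lost too (0.210). Leaving out an array of another time kept the difference itself at 1.00. Such a refit changed the spread estimate, its degrees of freedom and the adjustment over all clusters. The averaged difference passed in 18 of 18 such fits, at 0.45 to 0.54 with a highest adjusted p of 0.0350. Without control at 1 h replicate 1, further CNNM4 comparisons passed: aminaphtone against control at 6 h (0.0427), 1 h to 6 h under aminaphtone (0.0351), 3 h to 6 h under aminaphtone (0.0395) and the interaction (0.00678). Of all clusters 0.241%, 23.7%, 1.03% and 19% passed in these comparisons of that fit, in that order. Without control at 1 h replicate 2, the 1 h to 6 h (0.0367) and 3 h to 6 h (0.0373) comparisons under aminaphtone passed as well. In these comparisons 4008 and 260 of all clusters passed.

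**Figure D1:**
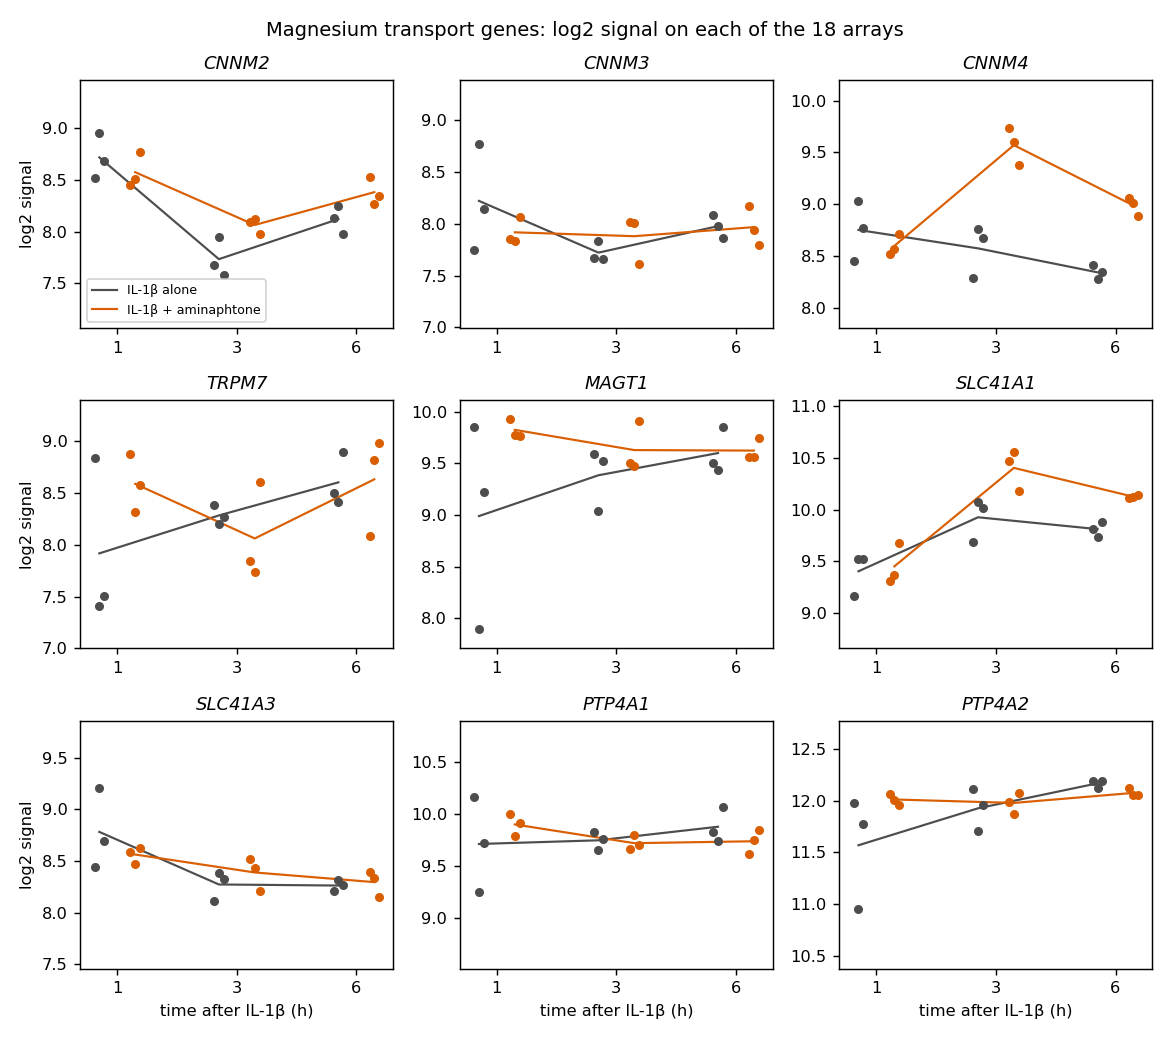
Log2 signal of each of the 9 genes on every array, by time in hours, with control (interleukin-1β alone) and aminaphtone (with interleukin-1β) groups of 3 arrays; points are arrays and lines join the group means. The 3 CNNM4 arrays with aminaphtone at 3 h, from 9.37 to 9.73, lie above the other 15 arrays, and the control group at 1 h is spread widest in 8 of the 9 genes.

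CNNM2, the family member known for its part in kidney magnesium retention, moved mainly with time. Its control arrays fell from 8.51, 8.95 and 8.68 at 1 h to 7.68, 7.94 and 7.58 at 3 h and stood at 8.13, 8.25 and 7.98 at 6 h. The 3 h arrays lay below all others of the control series. The signal fell by 0.98 log2 units from 1 h to 3 h (SE 0.135, limma adjusted p = 0.000158), where 12.8% of clusters passed, and fell by 0.60 from 1 h to 6 h (adjusted p = 0.00434), where 26.5% passed. Both control calls held in 18 of 18 fits with 1 array left out.

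Under aminaphtone, CNNM2 read 8.45, 8.51 and 8.77 at 1 h, 8.10, 8.12 and 7.98 at 3 h, and 8.53, 8.27 and 8.35 at 6 h. The fall from 1 h to 3 h was by 0.51 (SE 0.135, limma adjusted p = 0.0219). That call was lost without aminaphtone at 1 h replicate 3 (0.109), aminaphtone at 3 h replicate 1 (0.0666) or aminaphtone at 3 h replicate 3 (0.0698). Treated arrays lay above control arrays at 3 h (difference 0.33, 95% interval 0.04 to 0.62) and at 6 h (0.26, 95% interval -0.03 to 0.55) without overlap, and neither difference passed in limma (adjusted p = 0.656 and 1.00). A test of whether the time course itself differed by treatment gave an adjusted p of 0.540 for CNNM2 (limma interaction).

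CNNM3, the next protein-coding gene after CNNM4 on chromosome 2, passed in no comparison. Its control arrays read 7.75, 8.78 and 8.14 at 1 h, 7.67, 7.84 and 7.66 at 3 h, and 8.09, 7.98 and 7.86 at 6 h. With aminaphtone they read 7.86, 7.83 and 8.06 at 1 h, 8.02, 8.01 and 7.61 at 3 h, and 8.17, 7.94 and 7.80 at 6 h. Treated and control arrays overlapped at all 3 times. The treatment differences were -0.30 at 1 h (95% interval -0.71 to 0.11), 0.16 at 3 h (-0.25 to 0.57) and -0.01 at 6 h (-0.42 to 0.40). At 3 h the interval for CNNM3 lies below that for CNNM4 (0.68 to 1.31); the difference between the genes was not tested.

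PTP4A1 and PTP4A2 showed no treatment difference past the threshold. PTP4A2 was the brightest of the 9 genes, with group means of 11.57 (control at 1 h), 11.93 (control at 3 h), 12.17 (control at 6 h), 12.01 (aminaphtone at 1 h), 11.98 (aminaphtone at 3 h) and 12.08 (aminaphtone at 6 h). Its treatment differences were 0.44 at 1 h (95% interval 0.05 to 0.83), 0.05 at 3 h (-0.34 to 0.44) and -0.09 at 6 h (-0.48 to 0.30). In the control series the arrays rose from 11.98, 10.95 and 11.77 at 1 h to 12.19, 12.12 and 12.19 at 6 h. This difference of 0.60 (SE 0.184) passed in limma (adjusted p = 0.0236). It was 0.29 without control at 1 h replicate 2, the lowest array of the 18 for this gene, and the call was then lost (0.0845), as it was without control at 6 h replicate 1 (0.0642) or 3 (0.0722).

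PTP4A1 varied least between groups, with group means from 9.71 (control at 1 h) to 9.90 (aminaphtone at 1 h), a range of 0.189 log2 units. Its lowest and highest arrays, 9.24 and 10.16, both belonged to the control group at 1 h. The treatment differences were 0.19 at 1 h (95% interval -0.16 to 0.54), -0.03 at 3 h (-0.38 to 0.33) and -0.14 at 6 h (-0.49 to 0.21), and no comparison of PTP4A1 passed in limma.

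TRPM7, the channel with a kinase domain, passed in no comparison. Its control arrays at 1 h read 8.84, 7.41 and 7.51, a spread of SD 0.796, against 8.88, 8.32 and 8.57 with aminaphtone. At 3 h the control arrays read 8.39, 8.20 and 8.27 and the treated arrays 7.84, 7.74 and 8.61. At 6 h the control arrays read 8.50, 8.42 and 8.90 and the treated arrays 8.09, 8.82 and 8.99. Treated and control arrays overlapped at each time, and the 95% intervals of the differences were wide: -0.01 to 1.36 at 1 h, -0.91 to 0.46 at 3 h and -0.65 to 0.72 at 6 h.

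MAGT1 had the smallest p of the 9 genes at 1 h. Its arrays read 9.85, 7.89 and 9.23 in control cells and 9.93, 9.78 and 9.77 with aminaphtone, and the groups overlapped because control replicate 1 lay among the treated arrays. The difference of 0.83 (SE 0.320, 95% interval 0.16 to 1.51) did not pass in limma (adjusted p = 0.139). It was 0.29 without control at 1 h replicate 2 (adjusted p = 0.693) and 1.26 without control at 1 h replicate 1 (adjusted p = 0.00242), so the value and the call rest on which control array is kept. At 3 h and 6 h the differences were 0.24 (95% interval -0.43 to 0.92) and 0.02 (-0.65 to 0.70).

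SLC41A1, a plasma membrane carrier described as a sodium and magnesium exchanger, rose with time in both series. Its control arrays read 9.16, 9.52 and 9.53 at 1 h, 9.69, 10.08 and 10.02 at 3 h, and 9.81, 9.74 and 9.89 at 6 h. With aminaphtone they read 9.31, 9.37 and 9.68 at 1 h, 10.48, 10.55 and 10.18 at 3 h, and 10.12, 10.12 and 10.14 at 6 h. Under aminaphtone the signal rose by 0.95 from 1 h to 3 h (1.93-fold, SE 0.140, limma adjusted p = 0.000291) and by 0.67 from 1 h to 6 h (1.59-fold, adjusted p = 0.00298), and both calls held in 18 of 18 fits with 1 array left out; 16.7% of clusters passed in the latter comparison. In control cells it rose by 0.52 from 1 h to 3 h (adjusted p = 0.0216) and by 0.41 from 1 h to 6 h (adjusted p = 0.0397).

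The control rises of SLC41A1 were less secure. The 3 h call was lost without control at 3 h replicate 2 (0.0645) or 3 (0.0817). The 6 h call was lost without control at 1 h replicate 1 (0.110), any 1 of the control arrays at 6 h (0.0609 to 0.128), or aminaphtone at 6 h replicate 2 (0.0523) or 3 (0.0511). Treated arrays lay above control arrays without overlap at 3 h (difference 0.48, 95% interval 0.18 to 0.77) and at 6 h (0.31, 95% interval 0.02 to 0.61). Neither passed in limma (adjusted p = 0.420 and 1.00), nor did the average of 0.28 (1.21-fold, SE 0.0808, adjusted p = 0.115). The averaged difference did pass with replicate numbers as a block within each time (adjusted p = 0.0489) and without control at 1 h replicate 1 (0.0370).

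SLC41A3, a relative of SLC41A1, fell with time in the control series. Its control arrays read 8.44, 9.20 and 8.70 at 1 h, 8.11, 8.38 and 8.33 at 3 h, and 8.21, 8.32 and 8.27 at 6 h, so all later arrays lay below those of 1 h. The falls were by 0.51 to 3 h (SE 0.154, limma adjusted p = 0.0387) and by 0.52 to 6 h (adjusted p = 0.0197). Without control at 1 h replicate 2 they were -0.30 (adjusted p = 0.156) and -0.31 (0.0925). The 3 h call was also lost without control at 1 h replicate 3 (0.0681), control at 3 h replicate 1 (0.174) or 3 (0.0793), control at 6 h replicate 1 (0.0516) or 2 (0.0501), aminaphtone at 1 h replicate 1 (0.0509) or 3 (0.0505), or aminaphtone at 6 h replicate 2 (0.0528). The 6 h call was also lost without control at 6 h replicate 1 (0.0643) or 3 (0.0570). With aminaphtone the arrays read 8.59, 8.47 and 8.63 at 1 h, 8.52, 8.44 and 8.21 at 3 h, and 8.40, 8.33 and 8.16 at 6 h, and no treated comparison passed. Treatment differences were -0.22, 0.12 and 0.03 at 1, 3 and 6 h.

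**Figure D2:**
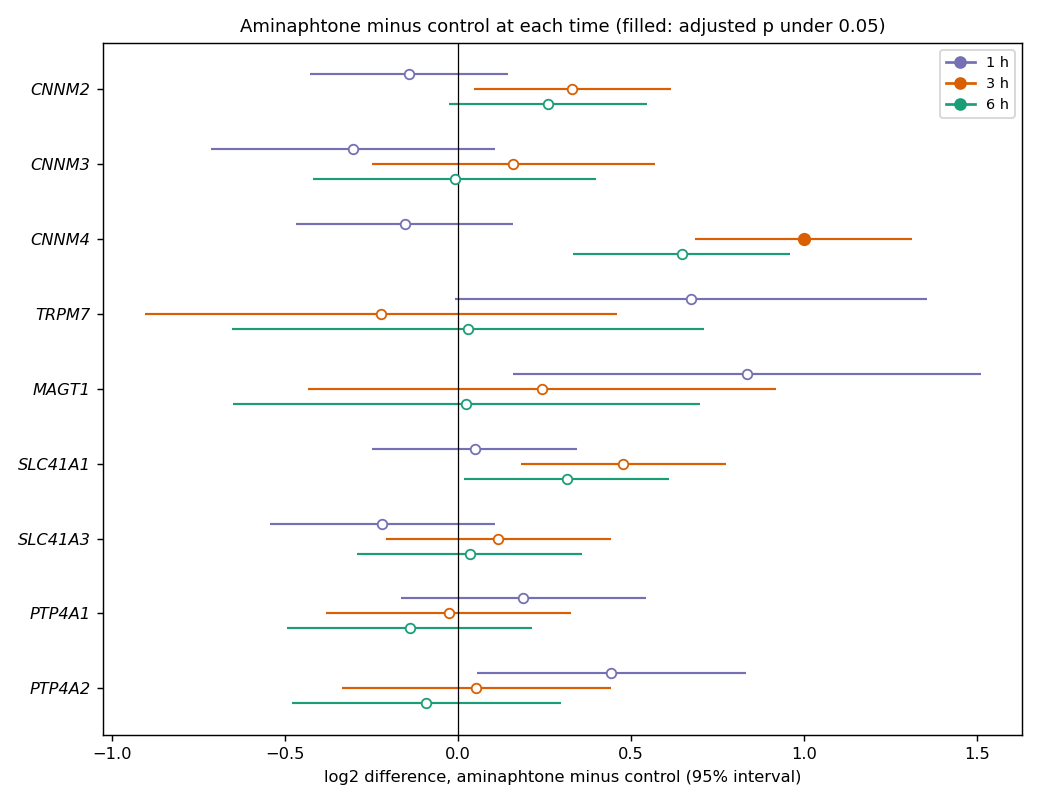
Aminaphtone minus control in log2 units for the 9 genes at 1, 3 and 6 h; points are fitted differences, bars are 95% intervals, and filled points passed the limma threshold over all clusters. CNNM4 at 3 h (1.00) is the only filled point. The 3 h and 6 h intervals of CNNM4 and SLC41A1 lie above 0, as do those of CNNM2 at 3 h and of MAGT1 and PTP4A2 at 1 h.

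Counted over the 9 genes, aminaphtone against control gave no limma call at 1 h, where 0.0886% of all clusters were called. At that time 2 genes (MAGT1 and PTP4A2) had an unadjusted limma p under 0.05, as did 4858 of all 15796 clusters tested. With replicate numbers as a block, as they were taken for pairs at 1 h, 2465 clusters (15.6%) were called in place of 14, and still none of the 9 genes, MAGT1 having the smallest adjusted p (0.0504). None of the 9 had groups apart at 1 h, where 5.77% of all clusters were higher and 7.55% lower without overlap. At 3 h 1 gene was called, CNNM4, and none fell. At 6 h there was no call, where 0.108% of clusters were called. There 2 genes (CNNM4 and SLC41A1) were under 0.05 unadjusted, as were 620 of all clusters. CNNM2, CNNM4 and SLC41A1 were higher without overlap at both 3 h and 6 h, where 7.58% and 8.86% of all clusters were, and none of the 9 was lower without overlap, where 4.99% and 7.25% were. The median treatment difference over the 9 genes was 0.05 at 1 h, 0.16 at 3 h and 0.03 at 6 h, against -0.10, 0.00 and -0.01 over all clusters tested. The interaction of treatment and time gave no call, with CNNM4 alone of the 9 under 0.05 unadjusted, as were 1458 of all clusters.

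Over time the same fit called more of the genes, and more of the whole table. In control cells 1 gene rose (SLC41A1) and 2 fell (CNNM2 and SLC41A3) from 1 h to 3 h, where 4.81% of all clusters rose and 7.98% fell. From 1 h to 6 h 2 rose (SLC41A1 and PTP4A2) and 2 fell (CNNM2 and SLC41A3), where 11.3% rose and 15.2% fell. With aminaphtone 2 rose (CNNM4 and SLC41A1) and 1 fell (CNNM2) from 1 h to 3 h, where 5.09% rose and 5.45% fell. From 1 h to 6 h SLC41A1 alone of the 9 was called, where 6.01% rose and 10.7% fell. In fits of only the 6 arrays compared, CNNM2 from 1 h to 3 h (adjusted p = 0.0423) was the one control call kept, and from 1 h to 6 h none was (adjusted p 0.0708 to 0.179 for the 4 genes). The share of all clusters called in those fits is not given here. From 3 h to 6 h limma called none in control cells, where 0.513% of clusters were called, and none with aminaphtone, where 0.266% were. In control cells CNNM2 alone of the 9 was under 0.05 unadjusted, as were 1582 of all clusters. With aminaphtone CNNM2 and CNNM4 were under 0.05 unadjusted, as were 1551 of all clusters. The treated and control series share no arrays, and whether their time differences differ was tested only by the interaction, in which none of the 9 genes was called. The control group at 1 h enters the control comparisons from 1 h, and without its replicate 1 the calls numbered 7 of the 9 genes from 1 h to 3 h and 8 from 1 h to 6 h, where 36.2% and 44.8% of all clusters were. The calls gained to 3 h were CNNM3 (-0.74, adjusted p = 0.00422), TRPM7 (0.83, 0.0199), MAGT1 (0.82, 0.0241) and PTP4A2 (0.56, 0.0174). Those gained to 6 h were CNNM3 (-0.48, 0.0320), CNNM4 (-0.56, 0.00459), TRPM7 (1.15 against 0.69 with all arrays, 0.00196), MAGT1 (1.04 against 0.61, 0.00489) and PTP4A1 (0.39, 0.0293), and SLC41A1 was lost (0.110). The interaction then passed for CNNM4, TRPM7 (0.0282) and MAGT1 (0.0454), where 19% of all clusters passed.

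**Figure D3:**
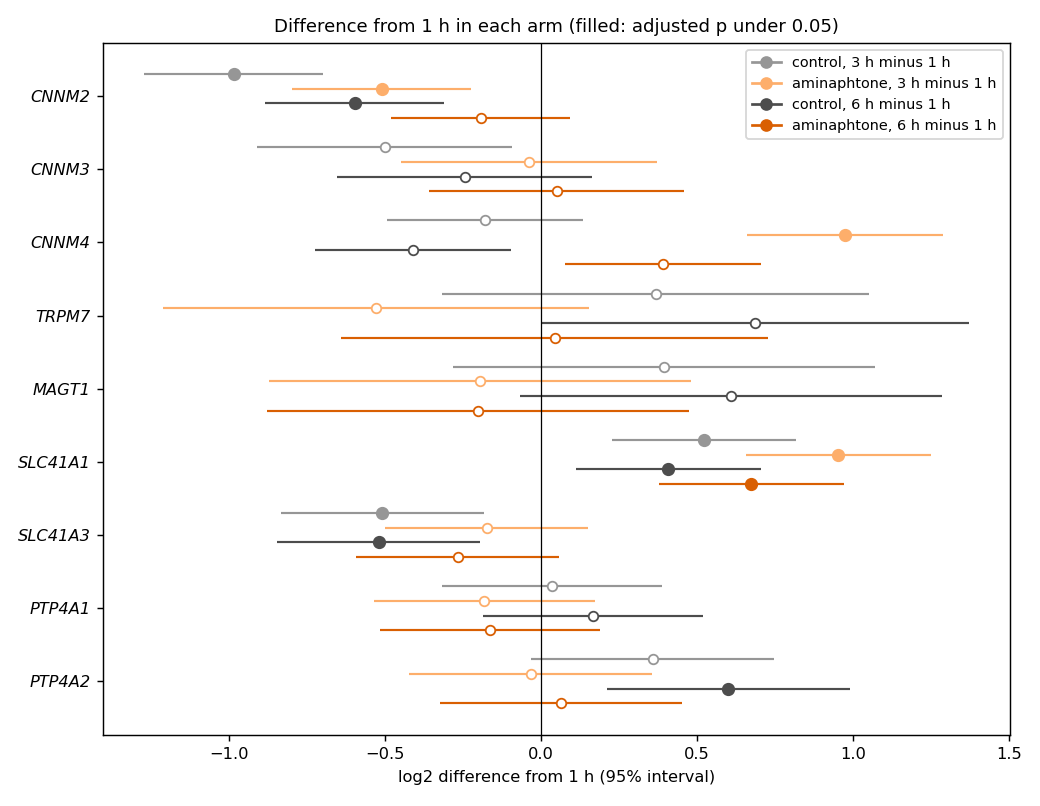
Differences from 1 h in log2 units at 3 h and 6 h for the 9 genes, within control and within aminaphtone arrays; points are fitted differences, bars are 95% intervals, and filled points passed the limma threshold. From 1 h to 3 h CNNM4 rose by 0.97 with aminaphtone and differed by -0.18 in control cells, whereas SLC41A1 rose in both (0.95 and 0.52) and CNNM2 fell in both (by 0.51 and 0.98).

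Without control at 1 h replicate 1, limma called 6 of the 9 genes at 1 h: TRPM7 (1.13), MAGT1 (1.26), PTP4A1 (0.42) and PTP4A2 (0.65) were higher with aminaphtone, and CNNM3 (-0.54) and SLC41A3 (-0.39) were lower. In the same fit 53.9% of all clusters were called, against 0.0886% with all arrays. The averaged comparison then called 3 of the 9 (CNNM4, MAGT1 and SLC41A1), where 21.8% of all clusters were called. Why the 1 h values turn on this array was not tested.

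Other magnesium transporters and regulators were read from a list of 20 genes, of which 18 had a single-symbol cluster and 15 were tested. CNNM1, TRPM6 and EGF lay under the filter, and the rest were not analysed here. At the single times limma called none for treatment. Averaged over the times, 2 of 15 were called, both lower with aminaphtone, as were 0.405% of all clusters: PTP4A3, the third PRL phosphatase, fell by 0.69 (1.61-fold, SE 0.124, adjusted p = 0.0146) and NIPAL4 fell by 0.53 (1.44-fold, SE 0.109, adjusted p = 0.0290). The PTP4A3 differences were -0.60 at 1 h, -0.96 at 3 h and -0.50 at 6 h, and it kept its averaged call in 18 of 18 fits with 1 array left out; NIPAL4 kept its call in 6 of 18, those without control at 1 h replicate 1 or 2, aminaphtone at 1 h replicate 3, control at 3 h replicate 1, aminaphtone at 3 h replicate 2 or aminaphtone at 6 h replicate 1 (adjusted p 0.05001 to 0.0830 in the rest). The median averaged difference of the 15 genes was 0.10, against -0.02 over all clusters.

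With time, SLC41A2, another carrier of the SLC41 family, rose in control cells from 1 h to 3 h by 1.53 (2.90-fold, limma adjusted p = 0.00105) and with aminaphtone by 1.19 (2.28-fold, adjusted p = 0.00682). In control cells 3 of 15 rose and 1 fell from 1 h to 3 h, where 4.81% of all clusters rose and 7.98% fell: besides SLC41A2, NIPAL1 rose by 0.87 and NIPA1 by 0.94, and NIPAL3 fell by 0.66. From 1 h to 6 h 5 of 15 rose and 3 fell in control cells, where 11.3% of all clusters rose and 15.2% fell, led by NIPAL3 (fell by 1.03), SLC41A2 (rose by 1.46), NIPA1 (rose by 1.35) and NIPA2 (rose by 1.04). With aminaphtone 1 of 15 was called from 1 h to 3 h, where 10.5% of all clusters were. From 1 h to 6 h, where 6.01% rose and 10.7% fell, 2 rose, among them SLC41A2 by 1.26, and 3 fell: MRS2, the mitochondrial magnesium channel (fell by 1.04), ARL15, a small GTPase that binds CNNM proteins (fell by 0.91), and NIPAL3 (fell by 0.89). The same 3 genes were those called lower in control cells from 1 h to 6 h. There ARL15 differed by -0.81 (limma adjusted p = 0.00964) and MRS2 by -0.50 (limma adjusted p = 0.0483). The control call of NIPA1 from 1 h to 3 h was lost without control at 1 h replicate 2 (0.0809) or 3 (0.0662) or control at 3 h replicate 1 (0.0893) or 3 (0.0721). That of NIPAL3 was lost without control at 1 h replicate 3 (0.0744) or control at 3 h replicate 1 (0.130) or 3 (0.0631).

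MAGT1 was set beside 10 tested subunits of the oligosaccharyltransferase complex, from a list of 12 symbols. OST4 was not analysed here, and DC2 is an older symbol of OSTC, which was among the 10. Limma called none of the 10 in any comparison of aminaphtone with control. From 1 h to 6 h 2 fell in control cells, TMEM258 by 0.68 (adjusted p = 0.00185) and DDOST by 0.42 (adjusted p = 0.0311), and 2 fell with aminaphtone, TMEM258 by 0.63 (adjusted p = 0.00397) and the catalytic subunit STT3A by 0.32 (adjusted p = 0.0492). Of all clusters 15.2% and 10.7% fell in these comparisons, so 2 of 10 is near the background. The DDOST call was lost without control at 1 h replicate 2 (0.148) or 3 (0.0563) or control at 6 h replicate 1 (0.0649) or 3 (0.140), and the STT3A call held in 4 of 18 fits, those without control at 1 h replicate 1 or 2, control at 3 h replicate 1 or aminaphtone at 6 h replicate 1 (adjusted p 0.0523 to 0.165 in the rest). MAGT1 itself differed by 0.61 in control cells (adjusted p = 0.176) and by -0.20 with aminaphtone (adjusted p = 0.715) over the same interval.

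The 6 genes nearest to CNNM4 in the RefSeq order, KANSL3, FER1L5 and LMAN2L before it and CNNM3, ANKRD23 and ANKRD39 after it, were all tested, and limma called none for aminaphtone against control. At 3 h their differences were 0.23, -0.11, 0.25, 0.16, 0.06 and 0.01 in that order, against 1.00 for CNNM4. Each had an SE between 0.107 and 0.194. Treated arrays of KANSL3 lay above control arrays without overlap at 3 h and at 6 h (0.18), and below them at 1 h (-0.12). Those of ANKRD23 lay above at 6 h (0.19). Of all clusters 7.58% and 8.86% were higher without overlap at 3 h and 6 h, and 7.55% were lower at 1 h. LMAN2L, a lectin-like protein of the secretory pathway, fell in control cells by 0.78 from 1 h to 3 h (adjusted p = 0.0112).

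The genes whose log2 signals followed CNNM4 most closely over the 18 arrays, by Pearson r among 13796 tested genes outside the set, were LGMN (0.877), TMEM150A (0.873), GBA2 (0.866), EIF1B (0.864) and PIGH (0.864). LGMN encodes the lysosomal protease legumain, GBA2 a glucosylceramidase outside the lysosome, EIF1B a translation initiation factor and PIGH a subunit of the enzyme that starts GPI anchor synthesis. The points share the 6 groups and the array-wide spread, so these values rank likeness only. By Spearman's rho the first 5 were TMEM150A, GBA2, LGMN, METTL22 and MARK2, so 3 genes were in both lists. All 5 genes had treated arrays above control arrays without overlap at 3 h, by 0.45 for LGMN, 0.48 for TMEM150A, 0.36 for GBA2, 0.37 for EIF1B and 0.35 for PIGH, and limma called none of these. Since they were chosen for their likeness to CNNM4, these differences are a description. Among the 9 genes, SLC41A1 was most like CNNM4 (r = 0.715, rho = 0.618), CNNM3 and CNNM2 stood at 0.212 and 0.0494, and PTP4A1 and TRPM7 ran the other way (-0.459 and -0.451).

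**Figure D4:**
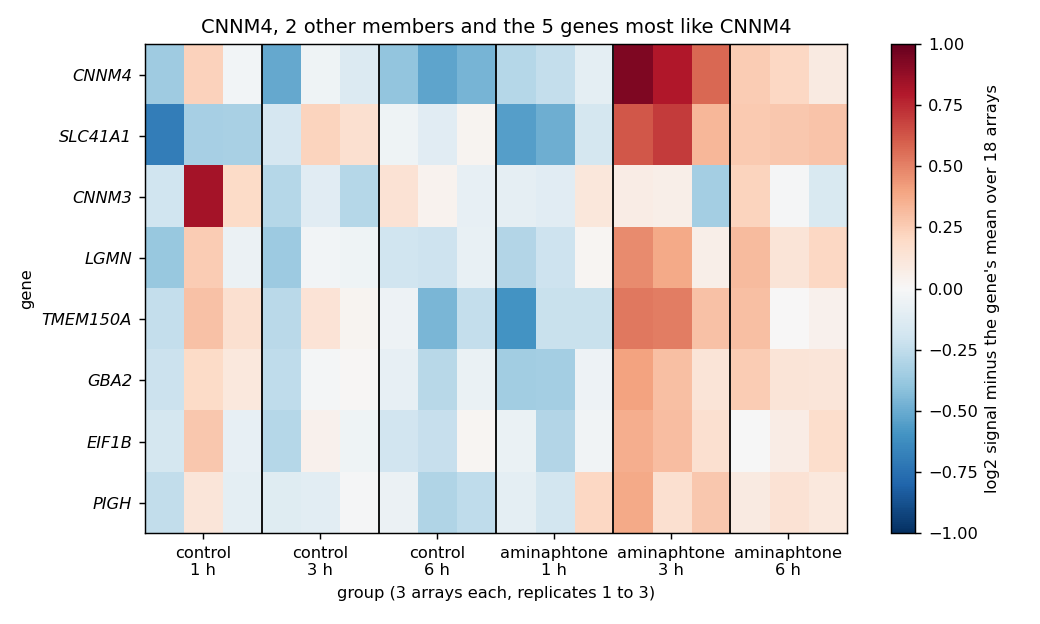
Log2 signal minus the gene's mean over 18 arrays, as colour, for CNNM4, SLC41A1, CNNM3 and the 5 genes most like CNNM4 (rows) on each array (columns, 3 per group). The darkest red cells of CNNM4 are its 3 arrays with aminaphtone at 3 h, where its mean signal is 9.57, and the darkest cell of CNNM3 is control at 1 h replicate 2 (8.78).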

How the data were processed

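Human Gene 1.0 ST arrays were hybridised with total RNA of ECV304 cells. Each deposited value is a log2 signal of 1 transcript cluster, which the authors obtained by RMA in Affymetrix Expression Console, per the submitters' processing notes. The version, the arrays normalized together and the genome build are not given in the sources used here. RMA quantile normalization gives arrays a common distribution, so a shift of most genes would not be seen. For arrays their number limits the precision.

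Of 28869 clusters, 21062 are annotated, and the 15796 with a mean log2 above the 25th percentile (6.193) were tested. Group means were estimated from the 18 arrays together by limma 3.58.1 (under R 4.3.3; 12 residual and 4.814 prior degrees of freedom), two-sided, for 11 comparisons, with Benjamini-Hochberg adjustment over all clusters tested and a threshold of 0.05. The fit was tested on simulated data. Fitted differences are given for CNNM4 in every comparison, for other members where they passed, and for list members that passed, at most 4 per list and comparison; treatment differences of the other members were added as values. Genes like CNNM4 were the 5 with the highest Pearson r. The members and lists were chosen with earlier results of these data known.

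Replicate numbers were taken as pairs where all 3 correlations of residuals exceeded 0.1. This held for treated and control arrays at 1 h (0.746, 0.411 and 0.322) and for control arrays at 1 h and 3 h (0.313, 0.359 and 0.258), from the data and not from the labels. The main fit used no pairs. All values given for control cells from 1 h to 3 h come from fits without pairs, and no paired value is given for them. Alternatives were other filters, median centring, trend with robust variance, array weights, only the arrays compared, a replicate block and leaving out each array.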

Additional observations from a re-analysis of the deposited data

How the results depend on the processing

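Of the member differences called in the report, 2 for treatment and 11 for time, none changed sign under an alternative, but 11 of 36 treatment differences and 12 of 54 time differences of the 9 genes, none of them called, did in at least 1 (SLC41A1 at 1 h, 0.05, was -0.07 without control at 1 h replicate 1). With array weights, whose fit did not converge and gave 1 array (control at 1 h replicate 3) a weight of 51.9, the genes called numbered 5 at 1 h, 3 at 3 h, 5 at 6 h and 5 averaged for treatment, 9 for the interaction, 7, 8 and 4 for control 3 h against 1 h, 6 h against 1 h and 6 h against 3 h, and 6 and 3 for aminaphtone 6 h against 1 h and 6 h against 3 h. Of all clusters 71.6%, 4.6%, 47.2%, 56%, 61.7%, 61%, 74.3%, 23.5%, 58.1% and 45.1% were then called, in that order. When each fit held just its own 6 arrays, they numbered 0 at 3 h and 1 at 6 h for treatment (CNNM4 adjusted p 0.210 and 0.0199), 1 and 0 for control 3 h and 6 h against 1 h, and 2 for aminaphtone 6 h against 1 h. Fewer arrays leave fewer degrees of freedom. The share of all clusters called in these 6-array fits is not given here, so their counts cannot be set against it. The replicate block within each time gave 2 for the average, where 4.65% of all clusters were called, and changed no other count by over 1.5 times; CNNM4 at 3 h kept its call (0.0499). With 1 array left out, the counts ran from 0 to 6 at 1 h, 0 to 1 at 3 h, 0 to 1 at 6 h, 1 to 3 averaged, 0 to 3 for the interaction, 1 to 7, 1 to 8 and 0 to 0 for the control times, and 2 to 3, 1 to 2 and 0 to 1 for the aminaphtone times, in the order above. The whole table lost calls too at the low ends. Fits with a count of 0 at 3 h called 0 or 1 of all clusters, against 6 with all arrays. The count of 1 for control 3 h against 1 h came with 1217 clusters called, against 2020. For control 6 h against 1 h it came with 3092 or 2586, against 4185. No filter, a stricter filter, median centring and trend with robust variance moved no count by over 1.5 times. Where not said above, the cause was not tested. MAGT1's dimmer cluster lay under the filter and gave no value.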

Other observations

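The array of control cells at 1 h labelled replicate 2 was the lowest of all 18 for 4 of the 9 genes and the highest for 3. TRPM7 (7.41), MAGT1 (7.89), PTP4A1 (9.24) and PTP4A2 (10.95) had their lowest array there, and the next lowest arrays read 7.51, 9.04, 9.62 and 11.71. CNNM2 (8.95), CNNM3 (8.78) and SLC41A3 (9.20) had their highest array there, and the next highest read 8.77, 8.17 and 8.70. CNNM4 (9.03) and SLC41A1 (9.52) had neither extreme on that array. Among the 3 control arrays of 1 h it was the highest for CNNM2, CNNM3, CNNM4 and SLC41A3 and the lowest for TRPM7, MAGT1, PTP4A1 and PTP4A2. PTP4A3, outside the 9 genes, was highest there (10.19 against 9.29 and 9.78), unlike PTP4A1 and PTP4A2. How many of all clusters had an extreme on this array is not given here.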
